A study of Mus musculus with 30 samples.

Results

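The comparison described here is between the RNA of mouse retinal ganglion cells (RGCs) taken 3 days after optic nerve crush and that of RGCs from uncrushed eyes, over all genes of the deposited count table. It rests on 6 of the 30 samples in the series, 3 libraries a group. Of 13752 genes in the table, 13737 had enough counts to be tested. Each library was made with SMART-Seq v4 from 5000 to 10000 cells, which had been dissociated with papain and taken by fluorescence-activated sorting. The day 3 libraries carry the strain label C57BL/6, as does no crush replicate 1, while no crush replicates 2 and 3 are labelled C57BL/7 and C57BL/8. The labels name no transgene or other allele, no age or sex, and no marker for the sort. Nor do they name the animal behind each replicate, so all p-values here rest on a spread between libraries that may be technical. Of the labelled samples, RNA of days 1, 2 and 4 and ATAC-seq of days 0, 1 and 3 are used only where named.

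RGCs are the output neurons of the retina, and their axons form the optic nerve. An adult RGC does not regrow a cut axon on its own, and most of these cells die in the weeks after the injury. The injury signal travels from the axon to the cell body through the kinases DLK and LZK and their target JNK, and it turns on bZIP transcription factors such as JUN, ATF3 and CHOP. It also engages the integrated stress response, in which phosphorylation of eIF2alpha slows translation while ATF4 turns on genes of amino acid supply. The cells meanwhile turn down genes of the mature neuron, among them ion channels and the POU4F factors.

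The libraries held 19024286 to 27561352 counts in genes. The gene with the most counts was Snap25 in the 3 no crush libraries and Malat1 in the 3 day 3 libraries, at 1.53% to 2.29% of counts. The RGC label was checked against 14 defining markers, whose summed level was 11707, 12137 and 13345 CPM (counts scaled to library size with TMM factors) in the no crush libraries and 8832, 9140 and 8546 CPM on day 3. All 14 were detected. Marker lists of other cell types had lower sums in every library. The 13 rod markers summed to 1226, 413 and 288 CPM in no crush replicates 1, 2 and 3 and to 770, 815 and 933 CPM on day 3. The 14 microglia and macrophage markers summed to 165, 117 and 110 CPM and then to 216, 212 and 201 CPM, with a median log2 change of -0.61. Without Cd68, a lysosomal protein of macrophages and the 1 marker that rose, the sums were 156, 114 and 103 CPM and then 105, 88.1 and 81.3 CPM. Defining genes of astrocytes (Gfap), endothelium (Cldn5), myelin (Mog), pigment epithelium (Rpe65) and red blood cells (Hba-a1) were not among the genes tested. No crush replicate 3 stood apart in interferon-induced genes, with a summed level of 4450 CPM against 390 and 405 CPM in the other uncrushed libraries. Results that rest on it are given with and without it. Xist, the X-inactivation RNA, also varied within each group, at 206, 0.389 and 0.739 CPM without crush and 961, 6.11 and 895 CPM on day 3, and did not pass the test (adjusted p = 0.0833).

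Of the 13737 genes tested, 2803 (20.4%) were higher and 2761 (20.1%) were lower on day 3 at an adjusted p under 0.05 in edgeR's quasi-likelihood test, 40.5% in either direction. With a change of at least 2-fold added, 976 genes (7.1%) were higher and 1160 (8.44%) lower. Changes of at least 8-fold were found for 156 higher and 98 lower genes. The 3 day 3 libraries lay above all 3 no crush libraries for 3381 genes (24.6%) and below them for 3156 (23%). The median log2 fold change of all genes was 0.03. Because the values are shares of each library and the samples are bulk, fewer cells of a type and less RNA per cell cannot be told apart. CPM are not per gene length, so levels are compared between samples and not between genes.

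**Figure D1:**
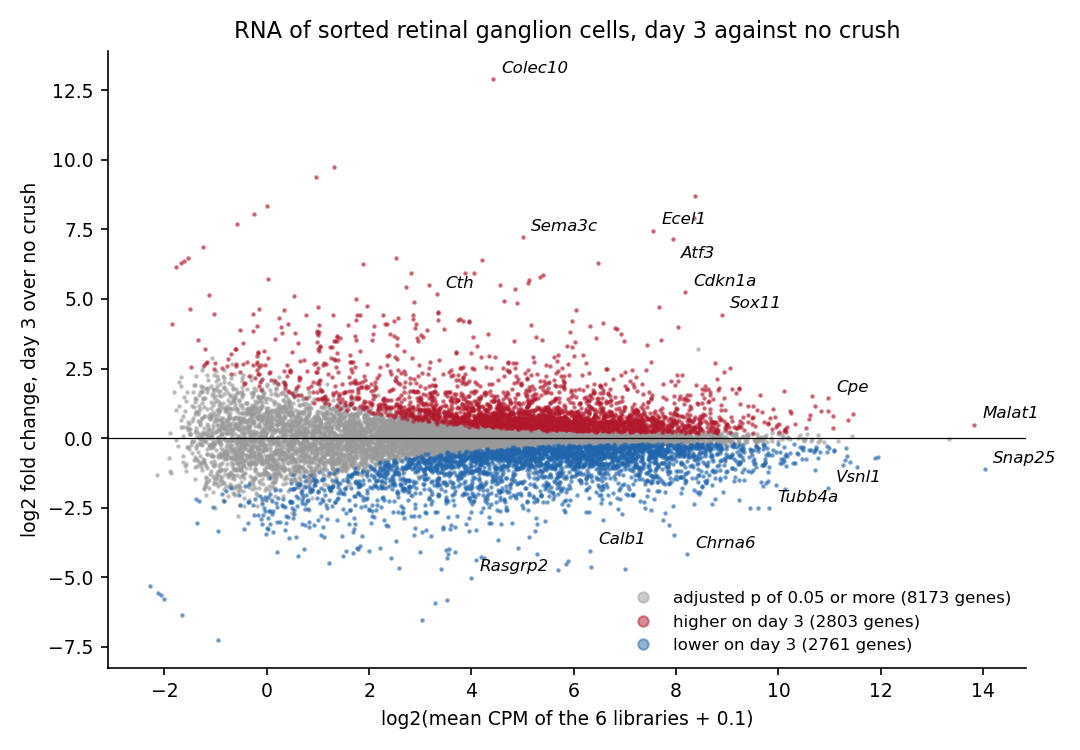
Fold change against level for all 13737 genes tested. The x axis is log2 of the mean CPM of the 6 libraries plus a small constant and the y axis is the log2 fold change of day 3 over no crush. Each point is a gene, red for the 2803 higher, blue for the 2761 lower and grey for the rest, and the largest rises reach farther from 0 than the largest falls. The fitted fold of a gene with no counts in a group, such as Colec10, is no measure of its size.

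The largest rises among genes that held their size whichever library was left out were of genes that were nearly silent in uncrushed RGCs. Colec10, a secreted collectin, had no counts in the 3 no crush libraries and stood at 40.3, 54.3 and 33.2 CPM on day 3. It was at least 313-fold higher, with 3 counts in each uncrushed library taken as the floor. Ecel1, an endopeptidase-like enzyme of injured neurons, was at 2.38, 2.50 and 1.56 CPM without crush and at 314, 398 and 407 CPM on day 3. The rise was 175-fold, with a log2 change of 7.45 ± 0.29 (SE, n = 3 and 3) and an adjusted p of 5.15e-12. The guidance ligand Sema3c went from 0.595, 0.302 and 0.389 CPM to 64.4, 64.4 and 61.1 CPM, a 149-fold rise (log2 7.22 ± 0.27, adjusted p = 4.78e-12). No library of either group came near the other group for these 3 genes.

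The other 9 of the 12 largest rises included transcription factors and a death gene. Atf3, a bZIP factor induced by axon injury, stood at 4.44, 2.24 and 3.77 CPM and rose to 450, 529 and 482 CPM, which is 141-fold (log2 7.14 ± 0.18, adjusted p = 4.88e-14). Hrk, a BH3-only gene that promotes neuronal death, went from 2.87, 2.20 and 1.79 CPM to 156, 206 and 163 CPM, or 77.6-fold (log2 6.28 ± 0.17). Arid5a, which codes for an RNA-binding protein, rose 47.6-fold, from 1.41 ± 0.60 to 67.3 ± 3.54 CPM (mean ± SD, n = 3 and 3). The cell cycle inhibitor Cdkn1a, a p53 target, was at 14.4, 13.1 and 17.0 CPM and then at 470, 622 and 589 CPM, a 37.8-fold rise with the groups far apart. Sox11, a developmental transcription factor that promotes axon growth, went from 38.5, 41.9 and 45.5 CPM to 913, 955 and 858 CPM. It rose 21.6-fold (log2 4.43 ± 0.09, adjusted p = 5.73e-15) and had the smallest error of the 12. The others were Cth, which makes cysteine from cystathionine (36.4-fold), Lix1 (28.9-fold), Zcchc12 (24.4-fold) and Taf7l (21.3-fold).

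The 12 largest falls were of several kinds of genes, among them receptors, a calcium buffer, an endopeptidase and a sodium channel subunit. Rasgrp2, an exchange factor that activates the GTPase Rap1, went from 36.3, 29.4 and 25.9 CPM to 1.51, 0.436 and 0.877 CPM, 32.2-fold lower (log2 -5.01 ± 0.48, adjusted p = 2.66e-07). The neutral endopeptidase Mme was 20.7-fold lower, and Sptssb, a small subunit of the enzyme that starts sphingolipid synthesis, 19.9-fold lower. Neither gene had a day 3 library above 2.63 CPM. Hrh3, the histamine H3 receptor, fell from 42.8, 30.0 and 31.1 CPM to 1.26, 1.88 and 2.17 CPM, or 19.5-fold. The nicotinic subunit Chrna6, an RGC marker, was at 531, 583 and 578 CPM and then at 33.3, 26.3 and 34.2 CPM. Its log2 change of -4.17 ± 0.10 had the smallest error of the 12 (adjusted p = 4.88e-14). Calb1, which codes for the calcium buffer calbindin, fell from 147, 160 and 145 CPM to 9.39, 7.73 and 10.3 CPM, 16.5-fold. The sodium channel subunit Scn4b was 17.1-fold lower, Aifm3 16.3-fold and the axonemal dynein Dnah6 15.8-fold. The unnamed genes 1500009C09Rik (24.6-fold lower) and Gm13446 (log2 -4.17) were also among them. Since the libraries do not keep strand, their reads cannot be told apart from those of genes on the other strand.

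**Figure D2:**
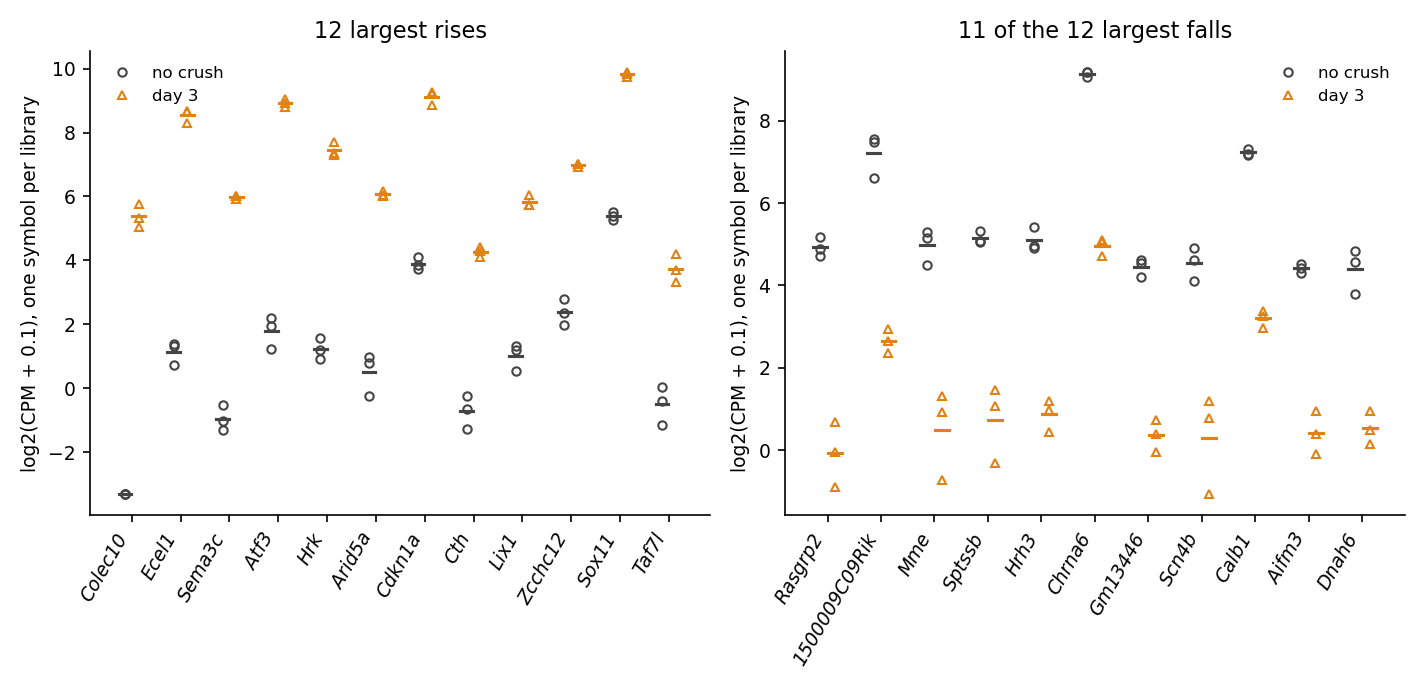
The 12 largest rises (left) and 11 of the 12 largest falls (right) among genes whose fold moved by at most 1.5 times when a library was left out. Each symbol is a library, circles for no crush and triangles for day 3, on an axis of log2 of CPM plus a small constant, and short bars mark the mean of these log values. The groups do not overlap for any of these genes, which the rule of choice required.

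Some genes rose as far or farther but by an amount that 1 uncrushed library set. Sprr1a, a small proline-rich protein of regenerating axons, stood at 0.0541, 0.216 and 4.08 CPM without crush and at 617, 668 and 700 CPM on day 3. Its log2 change was 8.69 ± 0.55, and 12.10 without no crush replicate 3. Mmp12, a matrix metalloproteinase, went from 0.812, 0.777 and 5.99 CPM to 657, 662 and 622 CPM (log2 7.91, and 9.65 without no crush replicate 3). Creb5, a bZIP factor, changed likewise (log2 5.93, and 8.13 without that library). In each case the day 3 libraries were close together and the uncertainty lay in the small uncrushed counts. The intermediate filament gene Nes (log2 6.45, and 7.89 without no crush replicate 1), the cytochrome oxidase subunit Cox6a2 (6.39, and 7.73) and the sorting nexin Snx33 (5.95, and 8.19) depended in the same way on no crush replicate 1.

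Ranked by the difference in CPM, which is not per gene length, the largest gains were in genes with many counts and modest folds. Malat1, a nuclear long non-coding RNA, went from 12160, 13262 and 11026 CPM to 17944, 15275 and 17829 CPM, only 1.40-fold. Cpe, the carboxypeptidase that trims neuropeptides, rose 2.71-fold, from 1042, 1145 and 1057 CPM to 2826, 3088 and 2876 CPM. Scg2, a granin of dense-core vesicles, rose 2.86-fold and the vesicle protein Syt4 2.24-fold. Rtn4, which codes for Nogo, rose 1.80-fold and the translation factor Eif4g2 1.95-fold. The largest loss was of Snap25, a SNARE of the release machinery, from 21814, 22283 and 24495 CPM to 10898, 10300 and 10730 CPM. That was a 2.15-fold fall (log2 -1.10 ± 0.08, adjusted p = 4.4e-09). Vsnl1, a calcium sensor, fell 3.47-fold, the sodium pump subunit Atp1b1 1.60-fold and the neurofilament light chain Nefl 1.95-fold.

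Among bZIP transcription factors, which bind DNA as pairs and include the known injury regulators, 18 of 26 tested rose and 1 fell. Their median was 1.30 on the log2 scale. Such counts, here and in the lists below, stand against 20.4% of all genes higher and 20.1% lower. Behind Atf3 came Creb5, then Atf5, which rose 13.4-fold from 26.5, 15.2 and 9.22 CPM to 218, 230 and 228 CPM. Ddit3, which codes for CHOP, rose 11.1-fold, from 23.8, 16.0 and 22.8 CPM to 210, 241 and 245 CPM (log2 3.48 ± 0.13, adjusted p = 4.78e-12). Neither Atf5 nor Ddit3 had a day 3 library near the uncrushed range. Jun rose 4.86-fold (58.0, 81.6 and 125 CPM to 423, 455 and 411 CPM) and Atf4 3.13-fold (271, 165 and 153 CPM to 573, 626 and 646 CPM). Atf6, a sensor of endoplasmic reticulum stress, rose 2.56-fold. The exception was Fos, the partner of Jun in AP-1, which fell 2.12-fold, from 48.0, 51.6 and 98.5 CPM to 41.1, 24.1 and 28.1 CPM. Its log2 change was -1.09, and -0.69 without no crush replicate 3, and it passed whichever library was left out.

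Other factors linked to axon growth went both ways: of 39 tested, 14 rose and 9 fell, with a median of 0.19, which became -0.06 without no crush replicate 3. Besides Sox11, the zinc finger factor Klf6 rose 3.67-fold (169, 154 and 166 CPM to 570, 626 and 598 CPM), Myc 5.45-fold and Egr1 2.96-fold. Stat3, the transducer of interleukin-6 type cytokines, rose 1.82-fold. Sox4, a close relative of Sox11, fell 3.59-fold, from 8.66, 13.4 and 17.1 CPM to 1.97, 5.24 and 3.72 CPM. Sox12, the other member of this SOXC family, fell 1.58-fold, so the family did not move in 1 direction.

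RGC identity factors were mostly lower. Of 25 tested, 15 fell, 1 rose and 9 did not pass, and the list's median was -1.01 on the log2 scale. Pou4f2, the POU-domain factor that specifies RGCs, fell 4.17-fold, from 246, 218 and 219 CPM to 56.9, 56.1 and 50.7 CPM (log2 -2.06 ± 0.10, adjusted p = 1.42e-10). Its relative Pou4f1 fell 2.62-fold, from 460, 348 and 413 CPM to 146, 177 and 143 CPM. Pou4f3 was at 8.50, 6.86 and 11.8 CPM and then at 6.63, 7.46 and 6.31 CPM, with overlapping groups and an adjusted p of 0.249. Zic1 fell 9.12-fold, Isl2 4.09-fold, Sox6 3.92-fold and Eomes 2.92-fold. The riser was Onecut2 (1.22-fold), which no longer passed with some single libraries left out (adjusted p up to 0.20).

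Of 21 RGC marker genes 13 fell and 4 rose (median -0.84). The surface protein Jam2 fell 6.53-fold, from 383, 382 and 381 CPM to 47.6, 66.5 and 61.3 CPM. The RNA-binding proteins Rbpms2 and Rbpms, in wide use as RGC markers, fell 3.74-fold and 2.26-fold. Rbpms was at 583, 549 and 605 CPM and then at 248, 261 and 258 CPM. Thy1, another common RGC marker, fell only 1.23-fold, and Slc17a6, the vesicular glutamate transporter of RGCs, rose 1.30-fold. Gap43, a growth cone protein, rose 2.40-fold, from 186, 188 and 226 CPM to 488, 506 and 450 CPM. The melanopsin gene Opn4 was at 47.8, 46.5 and 44.1 CPM and then at 19.7, 34.6 and 55.0 CPM, so its day 3 libraries spread across the uncrushed range (adjusted p = 0.30).

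The integrated stress response was among the lists with the most rises. Of 24 sensors, regulators and effectors, 19 rose and 2 fell, with a median of 1.89. Trib3, a pseudokinase that damps ATF4, went from 1.08, 0.173 and 0.233 CPM to 9.81, 17.1 and 14.9 CPM (29.7-fold, and 2.20 times that without no crush replicate 1). Chac1, which breaks down glutathione, went from 31.1, 4.14 and 6.14 CPM to 195, 224 and 211 CPM (15.6-fold, log2 3.96, and 5.32 without no crush replicate 1). For both genes no crush replicate 1 was the highest uncrushed library and still lay below every day 3 library. It also had the highest uncrushed sum of the list, at 1291, 1051 and 1086 CPM, against 2949, 3034 and 2987 CPM on day 3. The same held for the sums of amino acid synthesis (2445, 2220 and 2165 CPM) and of amino acid transporters (1716, 1428 and 1392 CPM). Single genes of these lists, such as Shmt2, did not all share this. Gadd45a, a stress gene of growth arrest, rose 16.2-fold (8.77, 7.81 and 11.3 CPM to 162, 149 and 142 CPM) and Sesn2, which reports low amino acids to mTOR, 14.1-fold. The kinase Eif2ak2 (PKR), an interferon-induced gene, fell, but its fall ended without no crush replicate 3 (adjusted p = 0.26).

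Genes of amino acid supply rose together with it. In serine, one-carbon and amino acid synthesis 13 of 20 rose and 3 fell (median 1.85). Psat1, of the serine pathway, rose 11.6-fold, from 50.4, 24.3 and 25.5 CPM to 345, 412 and 395 CPM. Shmt2, which moves a carbon from serine into the mitochondrial folate pool, rose 9.58-fold (10.7, 11.2 and 13.4 CPM to 126, 109 and 104 CPM). Phgdh, the first enzyme of serine synthesis, went from 3.73, 0.130 and 1.09 CPM to 43.7, 49.5 and 51.0 CPM, and asparagine synthetase, Asns, rose 3.79-fold. Among the falls was Glul, glutamine synthetase, at 1.23-fold. Of 17 amino acid transporters 10 rose and 2 fell. Slc7a5 and Slc3a2, the chains of the leucine transporter LAT1, rose 10.2-fold and 6.64-fold, the arginine transporter Slc7a1 5.44-fold and the glutamine transporter Slc38a2 2.09-fold. Slc1a1, a glutamate transporter, fell 1.91-fold.

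Of 19 aminoacyl-tRNA synthetases, which load amino acids onto tRNAs, 17 rose and 0 fell. Their summed level was 2517, 2115 and 2275 CPM without crush and 6248, 6402 and 6049 CPM on day 3. Eprs rose 3.34-fold, from 213, 189 and 223 CPM to 687, 745 and 654 CPM, Sars 3.36-fold, Wars 2.80-fold and Aars 2.65-fold. The log2 changes of all 19 were above 0 and ran from 0.16 for Dars, which did not pass, to 1.87 for Lars.

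Promoters of these stress genes were searched for the site at which ATF4 pairs with C/EBP factors, because Atf4, Ddit3, Cebpg and Cebpb all rose. The windows ran from 250 bases before to 50 bases after the RefSeq start on build GRCm38.p6, and 10797 of the 13737 tested genes had one. The C/EBP-ATF response element was searched as TGATGNAA on both strands. In the sequences below, 5′ to 3′ on the gene's strand, capitals mark a match and all else is lower case. Atf3 is shown as the largest rise of a bZIP factor, Trib3 and Chac1 as stress effectors with a match, chosen after the search, and Ecel1 as a large rise with none. In Atf3 the capitals also mark a match to the MEF2 motif.
Atf3, chr1:191183284-191183583, minus strand: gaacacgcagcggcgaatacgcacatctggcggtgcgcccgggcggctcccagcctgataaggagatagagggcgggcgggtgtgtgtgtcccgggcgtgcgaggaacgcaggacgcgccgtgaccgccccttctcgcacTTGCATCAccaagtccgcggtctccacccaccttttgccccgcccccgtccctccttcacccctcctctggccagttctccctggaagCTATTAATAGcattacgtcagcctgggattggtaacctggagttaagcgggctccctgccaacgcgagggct
Trib3, chr2:152344011-152344310, minus strand: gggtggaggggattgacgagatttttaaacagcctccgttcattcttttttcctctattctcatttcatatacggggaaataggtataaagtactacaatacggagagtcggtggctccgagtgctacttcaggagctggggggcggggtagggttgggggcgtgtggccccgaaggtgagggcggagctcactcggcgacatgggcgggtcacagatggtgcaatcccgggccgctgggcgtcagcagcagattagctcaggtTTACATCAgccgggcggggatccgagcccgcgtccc
Chac1, chr2:119350992-119351291, plus strand: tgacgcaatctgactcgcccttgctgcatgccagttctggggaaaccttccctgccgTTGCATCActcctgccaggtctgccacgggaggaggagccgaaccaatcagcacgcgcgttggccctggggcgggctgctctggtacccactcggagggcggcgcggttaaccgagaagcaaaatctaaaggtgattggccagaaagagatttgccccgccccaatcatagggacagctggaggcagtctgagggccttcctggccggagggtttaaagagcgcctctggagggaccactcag
Ecel1, chr1:87156307-87156606, minus strand: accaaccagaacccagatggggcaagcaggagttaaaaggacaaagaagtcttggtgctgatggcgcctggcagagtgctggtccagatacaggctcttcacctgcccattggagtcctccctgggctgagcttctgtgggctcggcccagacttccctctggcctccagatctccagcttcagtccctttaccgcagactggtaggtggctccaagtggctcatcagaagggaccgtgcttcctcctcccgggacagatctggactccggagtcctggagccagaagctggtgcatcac

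The element was found in 2.26% of all windows. It was in 4.59% of the windows of genes at least 2-fold higher on day 3 and in 10.1% of those at least 8-fold higher. Among genes at least 2-fold and 8-fold lower the shares were 2.44% and 1.39%. Of the 57 genes of the stress response, amino acid and synthetase lists with a window, 14 (24.6%) held it. They include Asns, Slc7a11, Nupr1, Herpud1, Aars, Gars, Iars, Tars and Yars besides Trib3 and Chac1, and 13 of the 14 rose (92.9%, median log2 change 1.76), against 30 of the 43 without a match (69.8%, median 1.51). The exception with a match was Got1, a transaminase. These lists were built around the integrated stress response, in which ATF4 acts, and with earlier results of these data known. Their shares are therefore no test of a part for the element. The AP-1 motif TGANTCA was in 4.76% of all windows, 9.44% of those at least 2-fold higher and 12.6% of those at least 8-fold higher, and in 5.12% and 9.72% of those at least 2-fold and 8-fold lower. The CRE TGACGTCA was in 3.20%, 3.93%, 2.52%, 2.33% and 2.78% of the same windows in that order. The windows of Sema3c and Rasgrp2 held none of the motifs searched. A match is a description of the letters and no evidence of binding.

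Protein quality control was mixed. Of 21 endoplasmic reticulum chaperones 7 rose and 4 fell. Hspa5, which codes for BiP, rose 2.90-fold (320, 426 and 481 CPM to 1196, 1205 and 1157 CPM), Herpud1 3.31-fold and Xbp1 2.07-fold, and calnexin, Canx, fell 1.68-fold. Of 21 heat shock proteins 6 rose (28.6%) and 5 fell (23.8%), not far from the 20.4% and 20.1% of all genes. The mitochondrial chaperone Hspa9 rose by 2.14 on the log2 scale (176, 156 and 162 CPM to 721, 740 and 713 CPM) and the small heat shock protein Hspb1 5.53-fold. Of 31 proteasome subunits 14 rose and 0 fell at the adjusted threshold, with a median of only 0.22. Psmb1 rose most of these, 1.75-fold. Without no crush replicate 2 or 1 the rises numbered 8 or 9. Of 30 lysosome and autophagy genes 11 rose and 2 fell, led by the autophagy receptor Sqstm1, 3.37-fold higher (223, 304 and 301 CPM to 890, 934 and 964 CPM). Ribosomal protein genes rose in 43 of 80 cases with 0 falls (median 0.53), among them Rps15a at 2.11-fold. Many of them have near-identical pseudogenes, so their counts are uncertain.

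The tubulins fell almost throughout. Of 15 tubulins and tubulin cofactors 14 fell and 1 rose, with a median of -1.93, and their summed level went from 5768, 6553 and 6590 CPM to 1589, 1624 and 1711 CPM. Tubb4a fell 5.74-fold, from 1515, 1436 and 1630 CPM to 254, 270 and 275 CPM (log2 -2.52 ± 0.09, adjusted p = 4.78e-12). Tuba1b fell 5.22-fold and Tppp3, which bundles microtubules, 11.3-fold (445, 444 and 481 CPM to 39.6, 38.8 and 42.9 CPM). The riser was Tubb6, 2.52-fold, from 4.76, 7.21 and 6.34 CPM to 15.9, 14.7 and 15.7 CPM. Tubulin genes are close copies of each other, so reads shared between them could blur single members more than the sum.

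Other cytoskeletal genes split by member. Of 34 stathmins, growth-associated and microtubule-associated proteins 11 rose and 15 fell. Stmn4, a stathmin, rose 6.43-fold (90.3, 141 and 116 CPM to 678, 770 and 793 CPM), while Stmn2 was at 601, 703 and 729 CPM and then at 682, 773 and 794 CPM (adjusted p = 0.181). The adhesion protein Flrt3 rose 4.61-fold and Marcks, a growth cone substrate of protein kinase C, fell 2.69-fold. Map1b was at 9946, 9610 and 11408 CPM and then at 10558, 10765 and 9343 CPM, with overlapping groups. Of the neurofilaments, Nefh fell 2.83-fold, Ina 1.93-fold and Nefl 1.95-fold. Vimentin, Vim, rose 5.70-fold from a low level (4.12 ± 1.26 to 23.5 ± 2.00 CPM, mean ± SD, n = 3 and 3).

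Motor genes changed little in size. Of 22 kinesins and adaptors 8 rose and 7 fell, from Kif26b (3.33-fold lower) and Kif5a (1.41-fold lower) to Kif3a (1.49-fold higher). Of 18 dynein and dynactin genes 8 rose and 7 fell. The heavy chain Dync1h1, the motor of retrograde transport, rose 1.76-fold (1018, 1122 and 1248 CPM to 1992, 2095 and 1889 CPM), with Dync1li2 at 1.71-fold and Dync1i2 at 1.64-fold. The adaptor Hook1 fell 1.64-fold. In some settings the dynein rises numbered 4 or 5.

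Ion channel genes were more often lower than higher. Of 5 pore subunits of sodium and sodium leak channels, 4 fell and 0 rose. Scn1a fell 3.26-fold, from 1281, 1258 and 1296 CPM to 456, 379 and 341 CPM (log2 -1.70 ± 0.09), and Scn8a, the main channel of the adult axon initial segment, 2.66-fold. The smaller falls were of Scn3a (1.30-fold) and Nalcn (1.32-fold), so the list did not fall evenly. Of 7 auxiliary subunits and binding proteins 6 fell, among them Fgf13 (4.43-fold), Scn3b (3.27-fold), Scn2b (2.34-fold) and Fgf12 (2.26-fold).

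Of 28 voltage-gated potassium channel genes 21 fell and 1 rose (median -0.98). Kcna2, which repolarizes the axon, fell 3.23-fold, from 1552, 1477 and 1507 CPM to 521, 442 and 443 CPM. Kcnip4 fell 3.18-fold and Kcnab2 2.98-fold. The riser Kcnab1 (1.46-fold) did not pass with some libraries left out (adjusted p up to 0.16). The other potassium and HCN channels did not share the fall: 6 of 21 rose and 7 fell. The leak channel Kcnk2 (TREK-1) rose 3.27-fold (7.31, 9.41 and 6.34 CPM to 24.8, 26.0 and 24.6 CPM) and Kcnma1, the BK channel, 1.55-fold, while the inward rectifier Kcnj9 fell 1.98-fold and the sodium-activated Kcnt1 1.99-fold.

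Of 18 voltage-gated calcium channel genes 12 fell and 0 rose. The T-type channel Cacna1g fell 4.09-fold, from 110, 106 and 108 CPM to 26.3, 27.8 and 25.2 CPM, and the accessory subunits Cacnb2, Cacna2d2 and Cacnb4 fell 3.39-fold, 2.91-fold and 1.96-fold. Calcium buffers and sensors fell in 22 of 25 cases, with 0 rises and a median of -0.92. Besides Calb1 and Vsnl1, hippocalcin, Hpca, fell 7.62-fold (283, 426 and 429 CPM to 53.2, 43.9 and 52.4 CPM) and parvalbumin, Pvalb, 7.28-fold (59.6, 72.3 and 69.5 CPM to 9.52, 10.0 and 8.14 CPM). Both were far below their uncrushed range in every day 3 library.

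Neurotransmitter receptors followed the same direction. Of 18 ionotropic glutamate receptor genes 10 fell and 2 rose. The AMPA receptor subunits Gria2, Gria3 and Gria4 fell 2.95-fold, 2.95-fold and 2.83-fold, and the NMDA subunit Grin2a 4.55-fold. Gria2 stood at 634, 579 and 514 CPM and then at 204, 183 and 199 CPM. The kainate subunit Grik3 rose 1.49-fold. Of 19 GABA and glycine receptor genes 13 fell and 1 rose. Gabrb2, a subunit of the main GABA-A receptor, fell 3.05-fold (436, 432 and 441 CPM to 145, 146 and 138 CPM), and the GABA-B subunit Gabbr2 fell 3.12-fold. The riser was the glycine receptor subunit Glra1 (1.77-fold).

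The nicotinic receptors fell by subunit. Of 9 tested, 4 fell and 0 rose: besides Chrna6 these were Chrnb3, 5.63-fold lower (1352, 1303 and 1309 CPM to 268, 217 and 218 CPM), Chrna4, 5.94-fold, and Chrnb2, 1.99-fold. The 4 falling subunits are partners in the alpha6-containing receptors of RGC axons. Of 28 modulatory G protein-coupled receptors 20 fell and 3 rose, with a median of -1.28. The serotonin receptor Htr1b fell 8.27-fold (32.9, 38.2 and 40.0 CPM to 4.32, 3.71 and 5.39 CPM), the neuropeptide Y receptor Npy1r 5.74-fold and the adenosine receptor Adora1 2.68-fold. Gpr85 rose 1.67-fold.

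In the release machinery 27 of 45 vesicle and active zone genes fell and 7 rose (median -0.44). Sv2b fell 4.19-fold, complexin 2, Cplx2, 2.34-fold and Nsf, which takes SNARE complexes apart, 2.04-fold, besides Snap25. Peptide genes split: 10 of 23 rose and 8 fell. Vgf, a neurotrophin-responsive granin precursor, rose 17.5-fold (11.4, 6.82 and 12.8 CPM to 151, 202 and 189 CPM) and Adcyap1, which codes for PACAP, 4.39-fold (32.9, 43.0 and 44.3 CPM to 193, 168 and 168 CPM). Crh, Npy and Gal rose from low levels. Cholecystokinin, Cck, fell 12.6-fold, from 41.5, 40.8 and 45.5 CPM to 2.60, 2.44 and 5.05 CPM, and chromogranin A, Chga, 2.58-fold.

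Growth factors and their receptors were more often lower than higher. Of 19 cytokines and growth factors 8 fell and 4 rose. Bdnf, a survival factor of RGCs, rose 2.36-fold (49.5, 44.8 and 66.2 CPM to 131, 125 and 123 CPM), while Fgf9 fell 2.61-fold, Vegfb 1.96-fold and Fgf1 1.96-fold. For Fgf1 the log2 change was -0.97, and -0.74 without no crush replicate 3. Among 21 growth factor receptors 10 fell and 2 rose. Fgfr1 rose 7.94-fold, from 10.5, 10.6 and 13.3 CPM to 89.6, 87.0 and 96.9 CPM (log2 2.99 ± 0.12, adjusted p = 6.68e-12), and Ntrk3, Sort1 and Alk fell 2.96-fold, 2.60-fold and 2.84-fold. Interleukin-6 family and TNF receptor genes rose in 7 of 21 cases and fell in 3. Tnfrsf12a, the TWEAK receptor, went from 0.650, 0.648 and 2.84 CPM to 76.4, 78.3 and 84.1 CPM (log2 5.78, and 6.91 without no crush replicate 3). Cntfr, Il11ra1 and Il6st, receptor chains of this cytokine family, rose 2.70-fold, 3.12-fold and 1.72-fold. Socs3, their feedback inhibitor, was at 2.76, 1.73 and 2.14 CPM and then at 4.03, 2.84 and 2.21 CPM (adjusted p = 0.31).

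Of 28 semaphorins, plexins and neuropilins 14 fell and 6 rose. Sema5a, a guidance ligand in the retina and optic nerve, fell 3.12-fold and Sema4g 4.08-fold, while the receptor Plxna2 rose 2.11-fold (191, 223 and 191 CPM to 426, 451 and 402 CPM). In the netrin, slit, ephrin and Nogo pathway 25 of 37 fell and 4 rose. The myelin glycoprotein Omg fell 6.27-fold (151, 110 and 130 CPM to 19.0, 17.2 and 26.0 CPM), and the receptor chains Rtn4rl1, Lingo1 and Rtn4r fell 2.38-fold, 2.43-fold and 1.94-fold. The ligand gene Rtn4 rose 1.80-fold, and Dcc, the netrin receptor, rose 1.89-fold. Of 42 integrins, matrix and adhesion genes 17 rose and 13 fell. Itga5, an integrin chain that binds fibronectin, went from 1.03, 2.50 and 0.506 CPM to 55.5, 71.8 and 78.4 CPM (log2 5.67, and 6.51 without no crush replicate 2). The hyaluronan receptor Cd44 rose 11.2-fold (6.33, 2.16 and 5.44 CPM to 50.9, 54.2 and 50.9 CPM). Ncam2 fell 4.01-fold and Nrcam 2.24-fold.

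**Figure D3:**
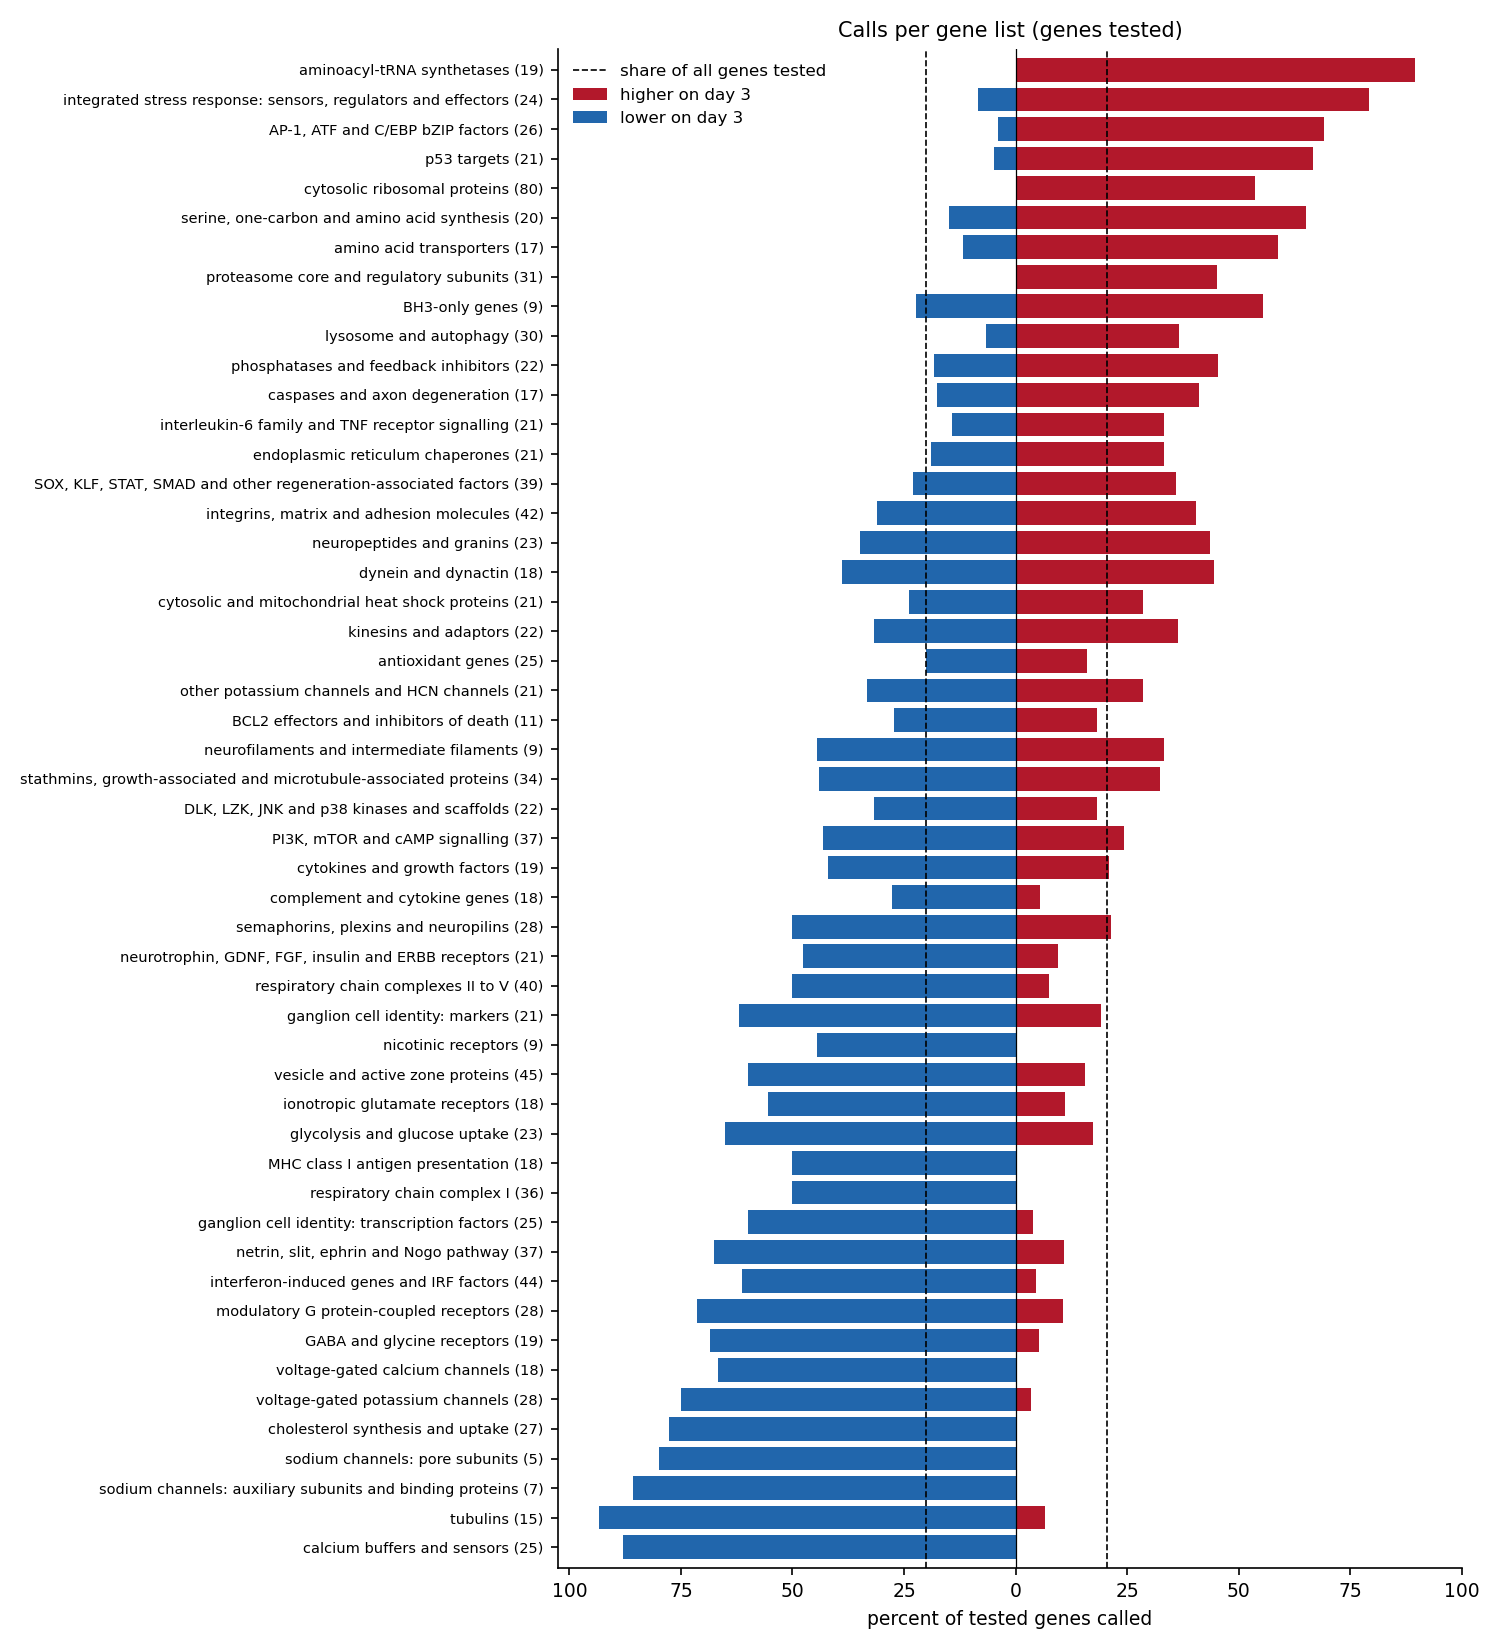
Share of the tested genes of each list that was called higher (red, to the right) or lower (blue, to the left) on day 3, in percent, with the number tested in brackets. Dashed lines mark the 20.4% and 20.1% of all genes, and lists are ordered by the share higher minus the share lower. Aminoacyl-tRNA synthetases stand at the top and calcium buffers and sensors at the bottom.

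In metabolism, cholesterol genes were mostly lower. Of 27 genes of cholesterol synthesis and uptake 21 fell and 0 rose, with a median of -1.04. The synthase gene Hmgcs1, an early step of the pathway, fell 2.75-fold and the sterol sensor Insig1 2.58-fold. In glycolysis and glucose uptake 15 of 23 fell and 4 rose: Aldoc, the brain aldolase, fell 4.71-fold, Ldhb 2.25-fold and Pfkm 2.00-fold, and the glucose transporter Slc2a1 rose 2.43-fold (91.5, 114 and 98.3 CPM to 223, 257 and 260 CPM). Complex I genes fell in 18 of 36 cases and 0 rose, with small sizes (Ndufa11 1.74-fold, Ndufa4 1.53-fold). In complexes II to V 20 of 40 fell and 3 rose, including the muscle-type Cox6a2.

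Antioxidant genes showed no common direction, with 4 of 25 higher (16%) and 5 lower (20%), near the 20.4% and 20.1% of all genes. Heme oxygenase 1, Hmox1, rose 16.8-fold, from 4.11, 3.80 and 4.12 CPM to 65.3, 67.0 and 69.5 CPM, and sulfiredoxin, Srxn1, 5.72-fold (139, 163 and 173 CPM to 874, 936 and 912 CPM). Nqo1, a target of the same NRF2 pathway, fell 5.49-fold, from 3.03, 6.43 and 8.32 CPM to 1.09, 1.27 and 0.877 CPM. Gsta4 fell 4.68-fold and Sod2 1.96-fold.

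Among death genes, 5 of 9 of the BH3-only class, which triggers the mitochondrial pathway, rose and 2 fell. Besides Hrk, Bcl2l11 (BIM) rose 15.0-fold (15.1, 13.1 and 14.6 CPM to 212, 254 and 175 CPM) and Bbc3 (PUMA) 3.94-fold. Pmaip1 (NOXA) went from 0.379, 0 and 0.272 CPM to 5.45, 2.58 and 2.84 CPM. Bnip3 fell 1.47-fold. The effector Bax, on which RGC death depends, was at 10.4, 23.7 and 15.9 CPM and then at 16.0, 20.3 and 21.7 CPM, with overlapping groups (adjusted p = 0.565). Of 11 effectors and inhibitors 2 rose (18.2%) and 3 fell (27.3%), not far from the shares of all genes. These changes were small except for Bok (2.70-fold lower). Of 17 caspase and axon degeneration genes 7 rose and 3 fell: the calpain Capn2 rose 2.00-fold and its inhibitor Cast 2.37-fold, and Capn1 fell 2.26-fold.

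Of 21 p53 genes 14 rose and 1 fell (median 0.63). Trp53 itself rose 2.43-fold and its negative regulator Mdm2 1.83-fold, and Sesn3 fell 1.52-fold. The list shares Gadd45a and Sesn2 with the stress response list. Of 22 DLK, LZK, JNK and p38 pathway genes 4 rose and 7 fell. Map3k12 (DLK) was at 116, 94.6 and 88.6 CPM and then at 89.1, 96.5 and 73.7 CPM, and Map3k13 (LZK) at 71.0, 83.5 and 87.2 CPM and then at 68.1, 66.1 and 62.6 CPM; neither passed (adjusted p = 0.179 and 0.0606). Tnik, a kinase upstream of JNK, rose 3.45-fold, and the JNK genes Mapk10 and Mapk9 fell 2.20-fold and 1.55-fold. Phosphatases and feedback inhibitors rose in 10 of 22 cases and fell in 4. Dusp16, which acts on JNK, rose 12.4-fold (5.79, 4.62 and 6.73 CPM to 63.0, 72.1 and 77.8 CPM), Dusp14 13.3-fold, Spry2 4.27-fold and Dusp1 3.02-fold. In PI3K, mTOR and cAMP signalling 9 of 37 rose and 16 fell, with Gsk3b 1.97-fold higher and the phosphodiesterase Pde4a 4.05-fold lower.

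Interferon-induced genes were called lower, and this rested on 1 uncrushed library. Of 44 tested, 27 fell and 2 rose (median -2.61). Without no crush replicate 3, 8 fell and 4 rose (median -0.45). Their summed level was 390, 405 and 4450 CPM without crush and 316, 292 and 302 CPM on day 3. It was 4848, 5050 and 2368 CPM on day 1, so no crush replicate 3 lay in the day 1 range. The antiviral gene Ifit1 was at 10.0, 8.07 and 279 CPM and then at 4.45, 3.06 and 3.80 CPM, a log2 change of -4.72 that was -1.27 without that library and no longer passed (adjusted p up to 0.065). Oasl2 was at 14.4, 29.3 and 700 CPM and then at 8.51, 9.95 and 10.5 CPM (log2 -4.68, and -1.20 without it). Ifi44 (-6.54, and -3.41), Gbp3 (-5.81, and -2.33) and Ifit3 (-4.52, and -1.98) still passed without it, and Iigp1 did not (-5.93, and -2.30). All day 3 libraries were below all uncrushed libraries for these 6 genes, but the rule of choice required this. For Gbp3 the gap was small, with the lowest uncrushed library at 0.650 CPM and the highest day 3 library at 0.629 CPM. Oas2 was at 0.812, 0.518 and 1.17 CPM and had no counts on day 3, which is at least 6.54-fold lower.

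The same library set the values of MHC class I genes. Of 18 antigen presentation genes 9 fell and 0 rose, and without no crush replicate 3 there were 3 falls and 3 rises (median -1.45, and 0.04). B2m, the light chain of MHC class I, was at 169, 150 and 1363 CPM and then at 190, 170 and 149 CPM. Psmb9, of the immunoproteasome, was at 2.54, 2.89 and 59.4 CPM and then at 1.97, 2.84 and 2.67 CPM (log2 -3.13, and -0.14 without that library). Of 18 complement and related genes 5 fell and 1 rose, and 2 falls were left without no crush replicate 3. C3, the central complement protein, fell 5.14-fold (12.7, 7.34 and 16.8 CPM to 2.81, 1.48 and 2.84 CPM), and the inhibitor Cd59a rose 1.61-fold. Whether the strain labels have a part in these values was not tested.

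**Figure D4:**
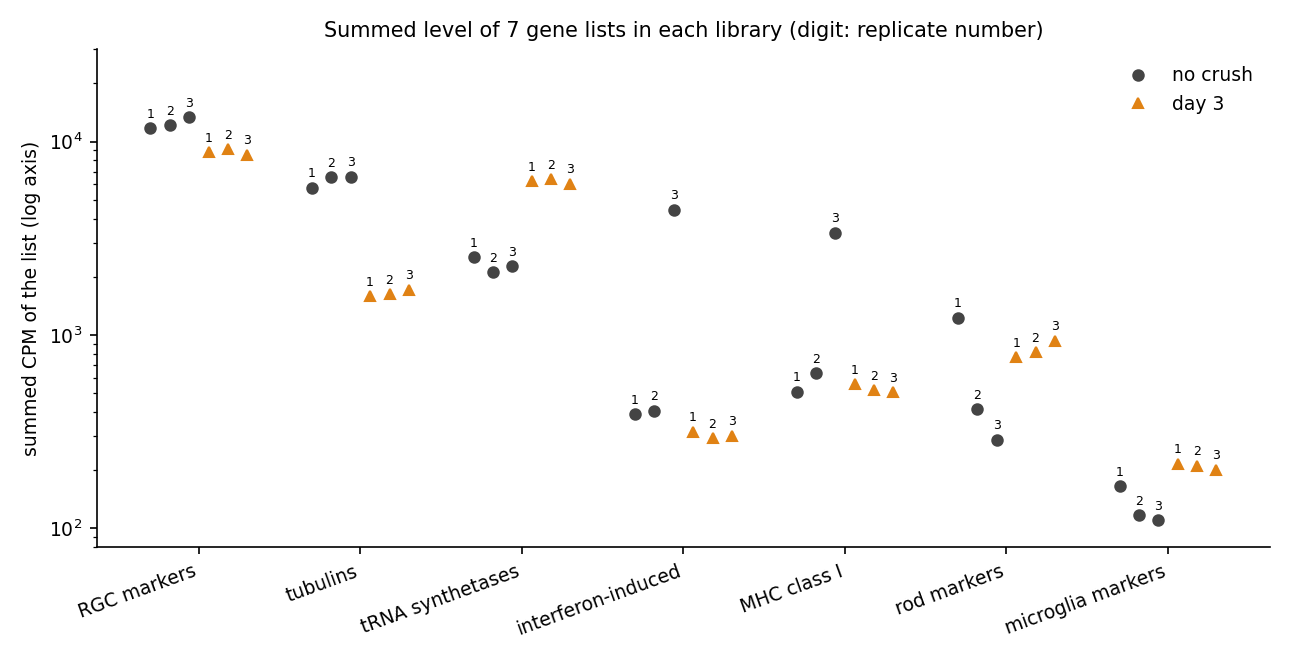
Summed CPM of 7 gene lists in each of the 6 libraries, on a log axis. Circles are no crush libraries, triangles day 3 libraries, and digits give the replicate number. Tubulins and tRNA synthetases separate by group, while in the interferon-induced and MHC class I lists no crush replicate 3 (4450 and 3381 CPM) lies apart from the other 5 libraries.

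Markers of other cells moved in part with the groups. Of 13 rod markers Sag and Pde6a rose (1.97-fold and 1.89-fold), Rom1 fell, and the other 10 did not pass. Of 14 microglia markers Cd68 rose 18.6-fold, from 8.55, 3.84 and 6.77 CPM to 111, 123 and 120 CPM, and Ptprc, the common leukocyte antigen, fell 2.68-fold, with the other 12 not passing. Of 12 Mueller glia and astrocyte markers 3 rose and 4 fell, and their sum was 907, 879 and 829 CPM and then 861, 695 and 812 CPM. The retinaldehyde-binding protein Rlbp1 of Mueller glia was at 2.06, 5.40 and 0.233 CPM and then at 17.9, 17.6 and 17.8 CPM. Of 12 amacrine and horizontal cell markers 2 rose and 5 fell, with sums of 1445, 1293 and 1067 CPM and then 938, 786 and 930 CPM. The part of these cells in the results on RGC genes was not tested.

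Libraries of the neighbouring days place day 3 in the time course, though these comparisons share the day 3 libraries with the one above, and days 2 and 4 have 2 libraries each. Against day 2, 1020 genes (7.43%) were higher and 1306 (9.51%) lower on day 3. Against day 3, 121 genes (0.881%) were higher and 118 (0.859%) lower on day 4. These counts leaned on single libraries: without a day 2 library 371 or 457 genes were higher than on day 2 and 625 or 798 lower. Without a day 3 library 41 to 52 genes rose to day 4 and 54 to 62 fell. Without day 4 replicate 2 the counts were 26 and 15, and without day 4 replicate 3 they were 0 and 1 in edgeR, against 244 and 350 in DESeq2 with all libraries. Ecel1 was at 35.6 and 52.0 CPM on day 2, below every day 3 library, and at 564 and 532 CPM on day 4. Sema3c was at 7.99 and 10.4 CPM on day 2 and at 54.7 and 66.5 CPM on day 4, and Colec10 at 6.26 and 7.46 CPM and then at 46.0 and 58.6 CPM. Atf3, at 223 and 216 CPM on day 2, was also below its day 3 range. Not all early genes were still climbing: Ddit3 was at 269 and 281 CPM on day 2, above its day 3 libraries, and Egr1 at 802 and 810 CPM. Sox11 was at 825 and 842 CPM on day 2, just under its day 3 libraries, and at 1318 and 1360 CPM on day 4. The tubulins had reached a sum of 1891 and 1853 CPM by day 2, near the day 3 level, while the tRNA synthetases stood at 4813 and 5124 CPM, below it.

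Against day 2 the largest rises on day 3 that met the naming rule were Xist, Ecel1, Flnc, Sema3c and Xirp2. Xist was at 0.561 and 1.30 CPM on day 2, at 961, 6.11 and 895 CPM on day 3 and at 4689 and 3583 CPM on day 4. Whether the sex of the animals, which the labels do not give, has a part in these values was not tested. Flnc, an actin cross-linker, was at 1.88 CPM or less on day 2 and at 10.9, 15.4 and 11.3 CPM on day 3, and Xirp2, another actin-binding protein, at 8.92 and 5.18 CPM and then at 50.7, 43.6 and 42.9 CPM. The largest falls were the interferon-induced Ifi44, Iigp1, Gbp3, Gbp8 and Gbp9. Ifi44 was at 125 and 21.9 CPM on day 2 and at 7.06 and 11.7 CPM on day 4, so day 3 was low against both neighbours. Of the 44 interferon-induced genes 39 were lower and 0 higher on day 3 than on day 2, and 4 were higher and 0 lower on day 4 than on day 3. Proteasome genes were higher than on day 2 in 22 of 31 cases, complex I genes in 12 of 36 and complexes II to V in 20 of 40, each with 0 lower. From day 3 to day 4 the largest rises were the antigen presentation genes H2-Aa and Cd74, the innate receptor pair Cd180 and Ly86, and the chemokine Ccl3. Cd74 was at 30.1, 9.97 and 37.3 CPM without crush and at 142 and 96.2 CPM on day 2. It was at 4.82, 4.71 and 8.56 CPM on day 3 and at 40.9 and 91.3 CPM on day 4. For each of these genes every day 3 library also lay below each day 2 library, so day 3 was low against both neighbours. The largest falls from day 3 to day 4 were Slc16a14, Slc35a2, Ddit4, Pvalb and Hpgd, each 2.07-fold to 2.33-fold.

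ATAC-seq of separate samples, 6 uncrushed and 6 of day 3, gave the accessibility of promoters, here peaks annotated within 1 kb of a gene's start. Over all 30151 such peaks, of which a gene can have several, 2816 (9.34%) were higher and 3075 (10.2%) lower on day 3, with batch as a term. Within batch 1 alone 510 were higher and 131 lower, within batch 2 alone 3236 and 4602, and without a batch term 951 and 759. Of the tested RNA genes 11579 had such a peak, and from here on only the strongest of each gene is used. These had a median log2 accessibility change of -0.15, with 4.43% of peaks higher and 13.9% lower. This balance depended on the scaling: with the trend by peak strength removed, 1231 peaks were higher and 1394 lower, against 513 and 1612. The share of reads in peaks ran from 0.173 to 0.496 over these 12 libraries. In batch 2 it was 0.427, 0.496 and 0.392 without crush and 0.31, 0.173 and 0.185 on day 3, with no overlap. In batch 1 it was 0.39, 0.391 and 0.322 and then 0.197, 0.456 and 0.436, with overlapping groups. The part of this share in the peak calls was not tested. Genes whose RNA was at least 8-fold higher had a median change of 0.11, with 24.6% of 126 peaks higher and 4.76% lower (38.9% and 3.97% after the trend was removed). Genes whose RNA was at least 8-fold lower had a median of 0.04, with 16.3% of 86 peaks higher and 8.14% lower (25.6% and 6.98% after the trend was removed). This excess of higher peaks was not seen in batch 2 alone (12.8% each, median -0.06) and was small with DESeq2 (11.6% and 10.5%, median -0.01), and without a batch term 1.16% were higher and 0% lower. For genes at least 8-fold higher the same settings gave 25.4% and 9.52%, 20.6% and 6.35%, and 5.56% and 2.38%. Within batch 1 alone, 4.76% and 0% of peaks were called for the genes at least 8-fold higher and 3.49% and 0% for those at least 8-fold lower. Genes at least 2-fold lower had 6.97% higher and 20.7% lower, or 71 and 211 of 1019 peaks, which became 135 and 183 after the trend was removed.

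Promoter peaks of the 24 largest RNA changes moved far less than the RNA. Of the 21 with a peak, Atf3 had the largest rise. Its peak, 747 bases from an annotated start (chr1:191216075-191217292), was at 2.09 to 3.44 CPM in the uncrushed libraries (median 2.41) and at 4.24 to 7.46 CPM on day 3 (median 5.27). The groups did not overlap, and the log2 change was 1.03 ± 0.14 (adjusted p = 1.43e-05). This peak lies outside the RefSeq window whose sequence is given. Peaks of Sox11 (0.53), Arid5a (0.38) and Mme (0.47) were also higher and those of Hrh3 (-0.52) and 1500009C09Rik (-0.79) lower. The groups overlapped for each of these peaks. The Arid5a peak (chr1:36301325-36327298) covers the whole gene, so its change is not that of the promoter alone. Mme had a higher promoter peak (3.87 to 10.3 CPM uncrushed and 5.52 to 12.9 CPM on day 3) and 20.7-fold less RNA. The peaks of Ecel1 (0.22, adjusted p = 0.151), Sema3c (0.35, 0.111), Hrk (-0.04, 0.823) and Chrna6 (-0.18, 0.401) did not pass, with overlapping libraries.

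**Figure D5:**
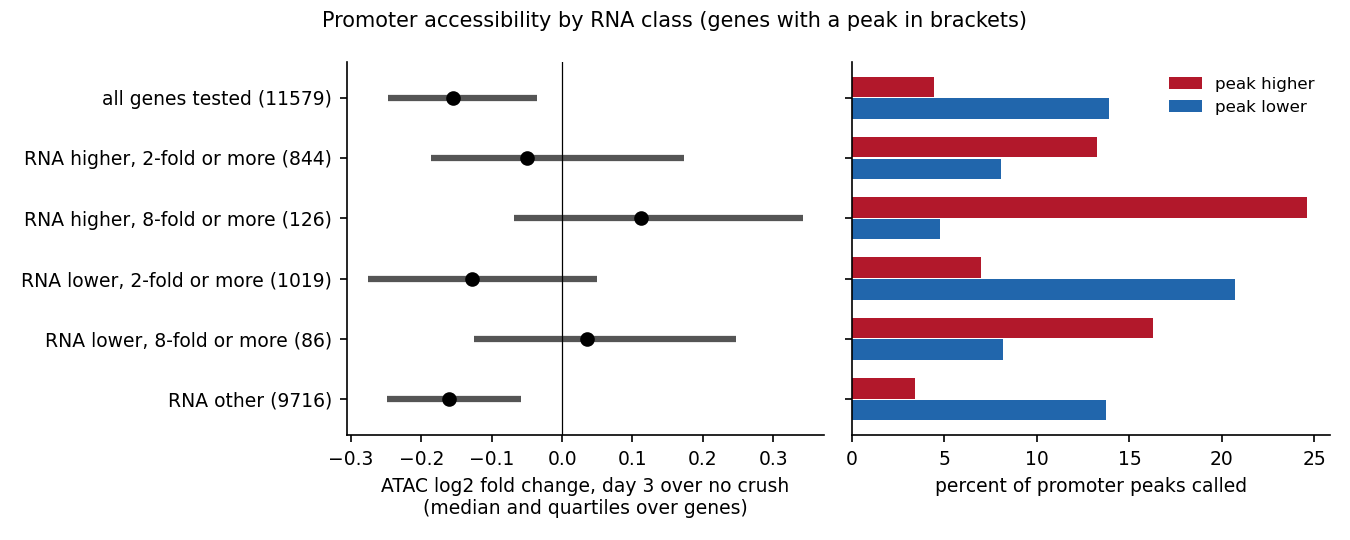
Change in promoter accessibility by class of RNA change. The left panel gives the median (dot) and quartiles (bar) over genes of the ATAC log2 fold change of day 3 over no crush, and the right panel the percent of promoter peaks called higher (red) or lower (blue), with the number of genes with a peak in brackets. The 8-fold classes lie within the 2-fold classes, and 24.6% of peaks were higher in the class of RNA at least 8-fold higher.

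The authors' deposited table of the same comparison called 1155 genes higher and 1554 lower. Of these, 941 (81.5%) and 1285 (82.7%) were called in the same direction here, which is 33.6% and 46.5% of the calls made here. In 23 genes the calls were opposite. The model behind that table is not given in the sources used here.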

How the data were processed

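RNA of sorted RGCs was deposited by the authors as whole-number counts per gene. For these samples the submitters' processing notes list HTSeq, STAR, edgeR and Picard and the build mm10, without saying what each did. No aligner or caller version was given in the sources used here. The authors further deposited log2 normalized expression, log2 fold changes with adjusted p-values, scores of components of sequencing metrics, ATAC counts per peak and the fraction of reads in peaks. For ATAC the notes name Bowtie2 (GRCm38, mm10), MACS2, featureCounts and DESeq2, among others, again with no roles.

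Of 15 labelled RNA samples, 13 were fitted together in edgeR 4.0.16 (R 4.3.3; filterByExpr, TMM, day as the only term, quasi-likelihood F test, two-sided, Benjamini-Hochberg over 13737 genes, threshold 0.05), and the other 2, of days 2 and 4, were not used here. The SE is the log2 fold change over the square root of F. ATAC peaks were fitted likewise with day and batch over 15 libraries. Floors are 3 counts per library and cover counting error only. The SMART-Seq v4 kit does not mark strand, so reads of a gene and an overlapping antisense gene cannot be told apart. The edgeR test was checked on simulated data with the same spread for every gene and no outlying library. The check therefore does not cover a library such as no crush replicate 3. Alternatives were DESeq2 1.42.0, its size factors, limma 3.58.1 on the deposited normalized values, other filters, the 6 libraries alone, a replicate block and each library left out, and for ATAC no batch term and a lowess trend with peak strength removed (span 0.3). Chosen after seeing the data were the limma fit, the sequencing components as terms, each ATAC batch alone and the microglia sum without Cd68. Replicate numbers did not pair the samples.

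The members and the 51 gene lists (1224 genes tested) were chosen with earlier results of these data known. Named genes are the 12 largest rises and falls that no single library moves by over 1.5 times and the 6 largest each way that fail this. The 5 largest each way of each neighbouring comparison were added. All of these needed a mean of at least 5 CPM and no overlap between the groups. Also named are the 6 largest gains and losses in CPM and up to 5 genes per list by p. All other genes given with values, such as Trib3, Chac1, Phgdh, Jun, Atf4, Cd44, Cd68, Cck, Zic1, Bax, Socs3, Sox12 and Map3k12, and the marker genes were chosen after their values were seen. A few genes that this rule names are not reported here.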

Additional observations from a re-analysis of the deposited data

Results flagged for a closer look

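The promoter peak of Aifm3, a gene whose RNA was 16.3-fold lower on day 3, had 1 uncrushed ATAC library far from the others. That library stood at 8.65 CPM, the nearest at 6.81 CPM, and the range of the 6 uncrushed libraries was 6.11 to 8.65 CPM. It was the only such case in 42 groups of 6 libraries tested, and chance alone gives about 1 in 20.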

How the results depend on the processing

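The 2803 higher and 2761 lower genes stayed within 1.5 times under the other tests, scalings, filters and library sets, at 2251 to 2814 and 2418 to 3026. A required fold of 2 left 976 and 1160. The replicate numbers did not pair the samples (same-number correlations of deviations 0.016, -0.0044 and -0.029), and a replicate block gave 2760 higher and 2698 lower genes, or 2251 and 2439 with the 6 libraries alone. Of 263 named genes, 253 kept their direction and side of the threshold without no crush replicate 3, where 10 no longer passed, and 255 to 263 did so in the other settings. No named gene turned its direction while still called. Named genes were mostly chosen for passing in these same data, some with each library left out, so these counts are no test of stability. Over all genes, 4831 of the 5564 calls were shared without no crush replicate 3. The interferon-induced falls numbered 27, and 16 with limma, with sequencing components or with the 6-library block.

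Against day 2, leaving out a library gave 371 to 884 higher and 625 to 1150 lower genes, against 1020 and 1306. The lowest counts came with day 2 replicate 1 left out, and omitting day 2 replicate 2 gave 457 higher and 798 lower. From day 3 to day 4, DESeq2 called 244 higher and 350 lower genes, against 121 and 118, and leaving out a library gave 0 to 52 higher and 1 to 62 lower. The single library left for a day is then assumed to vary like the other groups. For promoter peaks, DESeq2 called 4919 lower, batch 1 alone gave 510 higher and 131 lower, and a fit with no batch term gave 951 and 759. The cause was not tested. In the smallest library 1 count is 0.0526 CPM, which limits values of genes near 0.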
